A study of Homo sapiens with 4 samples.

Results

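The genes described here are 23 protein-coding genes whose nascent RNA counts were lower after depletion of KAP1 and which lie outside a set of named families, such as the zinc finger, core histone, keratin and ETS factor genes of the ETV group. Of the 19901 genes in the count table, 11015 were autosomal, shorter than 1 Mb and had at least 200 counts in all 4 libraries. Among these, 33 genes had a mean CPM (a gene's count for each 1000000 gene counts of its library) with DMSO at least 1.75 times that with dTAG and had both dTAG libraries below both DMSO libraries, which is 0.300% of the 11015. Dropping 9 histone genes and ETV7 by family name left the 23. They were thus chosen by the counts of the DMSO and dTAG libraries themselves, and their DMSO and dTAG values below are a description without a test.

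The counts come from TT-Seq, in which a short pulse of 4-thiouridine (4sU) marks newly made RNA for purification and sequencing. The cells were HCT116, a line from a colon carcinoma, and all 4 libraries were from clone D5, a single derivative in which both copies of KAP1 carry an FKBP12-F36V degron and an HA tag, so the DMSO cells carried the tagged protein too. Cells grown with serum received DMSO, the vehicle, or dTAG, the compound that sends the tagged protein to the proteasome, for 8 h, and then 500 μM 4sU for 10 min, with 3 dishes for each condition. The 2 libraries for each condition were biological replicates according to the methods of the study. Each SD below is the spread between these libraries. Each standard error comes from the edgeR fit, which shares its estimate of spread across genes.

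KAP1, the product of TRIM28, is a corepressor that KRAB zinc finger proteins bring to DNA, where it recruits the methyltransferase SETDB1 and helps to keep transposable elements silent. It has also been studied at the promoters of genes that RNA polymerase II transcribes, where the polymerase pauses soon after it starts. A gene whose nascent RNA falls within hours of the loss of a protein may be a direct or an indirect target, and counts over genes cannot tell these apart.

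The libraries held 93105627 to 102314741 gene counts. For tests, 12612 genes that reached 50 counts in every library were fitted with edgeR, and 461 (3.66%) were called lower and 434 (3.44%) higher with dTAG at an adjusted p under 0.05 (quasi-likelihood test, Benjamini-Hochberg). Differences between replicates were well above counting error, with a chi-square per degree of freedom of 51.3 for the pair with DMSO and 15.1 for the pair with dTAG. TRIM28 stood at 61.7 and 73.3 CPM with DMSO and at 52.4 and 46.4 with dTAG, which checks no label, since dTAG acts on the protein. Of 9 markers of colon epithelium, EPCAM, CDH1, KRT8, KRT18 and CDX2 were well counted, while CDX1, VIL1, LGALS4 and CEACAM5 had at most 31 counts in a library. The 9 markers summed to between 980 and 1048 CPM with DMSO and between 899 and 991 with dTAG. Markers of blood cells summed to at most 0.105 CPM, those of fibroblasts to between 4.61 and 5.55 (nearly all COL1A1), and those of endothelium to between 1.73 and 2.73 (mostly VWF).

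For 16 of the 23 genes, RefSeq (GRCh38.p14) gives a promoter sequence. The 120 bases before the RefSeq start are shown 5′ to 3′ for 5 of them, because they stand for the promoter types among the lowered genes, with capitals marking matches on either strand to the motifs GGGCGG (GC box), CCAAT and TATAAA.
CDKN1A, chr6:36678594-36678713, plus strand: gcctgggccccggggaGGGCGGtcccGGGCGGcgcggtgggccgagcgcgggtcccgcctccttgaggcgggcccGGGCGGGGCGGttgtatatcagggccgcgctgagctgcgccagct
MEX3B, chr15:82046019-82046138, minus strand: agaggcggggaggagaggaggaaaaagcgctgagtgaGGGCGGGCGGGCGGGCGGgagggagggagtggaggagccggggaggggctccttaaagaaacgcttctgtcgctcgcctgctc
MXD4, chr4:2262110-2262229, minus strand: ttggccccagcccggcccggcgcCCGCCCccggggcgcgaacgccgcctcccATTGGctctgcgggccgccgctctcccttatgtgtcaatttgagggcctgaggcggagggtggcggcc
DEPP1, chr10:44978810-44978929, minus strand: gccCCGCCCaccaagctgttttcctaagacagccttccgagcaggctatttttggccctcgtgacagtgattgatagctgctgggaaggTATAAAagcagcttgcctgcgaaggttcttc
PTCHD4, chr6:48111198-48111317, minus strand: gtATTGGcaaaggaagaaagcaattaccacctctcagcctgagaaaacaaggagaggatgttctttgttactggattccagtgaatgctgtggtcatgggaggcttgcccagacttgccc
The CDKN1A and MEX3B promoters each held 4 copies of GGGCGG, some of which overlap or adjoin each other. DEPP1 was the only one of the 16 with TATAAA, at 31 bases before the start. MXD4 and PTCHD4 held CCAAT, read on the other strand. The RefSeq start of CDKN1A lies 2.25 kb inside the counted gene, and that of PTCHD4 lies 42.5 kb before it, so the PTCHD4 sequence belongs to a start outside the counted interval.

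Over the window from 250 bases before to 50 after the start, CCAAT occurred in 10 of the 16 promoters (62.5%), against 36.9% of 8909 promoters of genes past the same limits. GGGCGG occurred in 11 (68.8%, against 72.3%) and TATAAA in 1 (6.25%, against 5.32%). The E-box CACGTG was found in MXD4 alone (10.2% of all), and the ETS motif CCGGAAG in TPBG alone (20.0%). No promoter held the AP-1 motif TGANTCA (4.22% of all), the full cAMP response element (3.61%) or the NRF1 motif (2.44%), which says only that these letters are not in these windows. The promoters had fewer CpG dinucleotides than most, with a median ratio of observed to expected CpG of 0.595 against 0.852, and 8 of 16 (50%) reached 0.6, against 86.0% of all.

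The first group were genes of cell cycle arrest, stress and related transcription factors, some of them known targets of p53, which is wild type in HCT116. CDKN1A (ENSG00000124762.13, chromosome 6 of hg38 from 36676459 to 36687339) encodes p21, an inhibitor of cyclin-dependent kinases. It stood at 205 and 256 CPM in DMSO replicates 1 and 2 and at 137 and 122 CPM in dTAG replicates 1 and 2. The means were 230.3 ± 36.3 (SD, n = 2) and 130 ± 10.4 (SD, n = 2), a ratio of 1.78. On the scale of edgeR's TMM normalization, this was -0.75 as a log2 fold change, with a standard error of 0.097. The lower DMSO library was thus 1.49 times the higher dTAG library, and with 21.2 CPM per kilobase of gene CDKN1A had the highest level per length of the 23. Its promoter is the GC-box sequence shown first.

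TP53INP1 (chromosome 8 from 94925971 to 94949411), whose p53-induced product acts in autophagy and cell death, stood at 49.0 and 53.4 CPM with DMSO and at 29.6 and 26.8 CPM with dTAG. This was -0.79 on the log2 scale (standard error 0.095), and the replicates lay close together in both conditions. The whole gene lies inside NDUFAF6 on the opposite strand, which had 164 and 163 CPM with DMSO and 170 and 170 with dTAG. PTCHD4 (chromosome 6 from 47878027 to 48068689), a patched-domain membrane protein that p53 induces, stood at 19.8 and 18.2 CPM with DMSO and at 10.8 and 10.7 CPM with dTAG, or -0.75 on the log2 scale (standard error 0.12). Unlike most of the 23, PTCHD4 was not higher in DMSO replicate 2 than in replicate 1.

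DEPP1 (chromosome 10 from 44970980 to 44978810), a FOXO target that progesterone induces, stood at 4.53 and 7.42 CPM with DMSO and at 3.26 and 3.23 CPM with dTAG. It lies inside RASSF4 on the opposite strand, whose log2 fold change was -0.36 (edgeR, Benjamini-Hochberg adjusted p = 0.28). MXD4 (chromosome 4 from 2247431 to 2262294), a partner of MAX that opposes MYC, stood at 19.4 and 27.7 CPM with DMSO and at 13.5 and 12.4 CPM with dTAG. DBP (chromosome 19 from 48630029 to 48637438), a leucine zipper factor driven by the circadian clock, had 20.0 and 30.6 CPM with DMSO and 13.0 and 12.6 CPM with dTAG. In all of these the dTAG libraries were close to each other and the DMSO libraries far apart, so that the ratio of DMSO to dTAG differed between replicates. It was 1.39 within replicate 1 and 2.30 within replicate 2 for DEPP1, 1.44 and 2.23 for MXD4, and 1.53 and 2.42 for DBP.

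**Figure D1:**
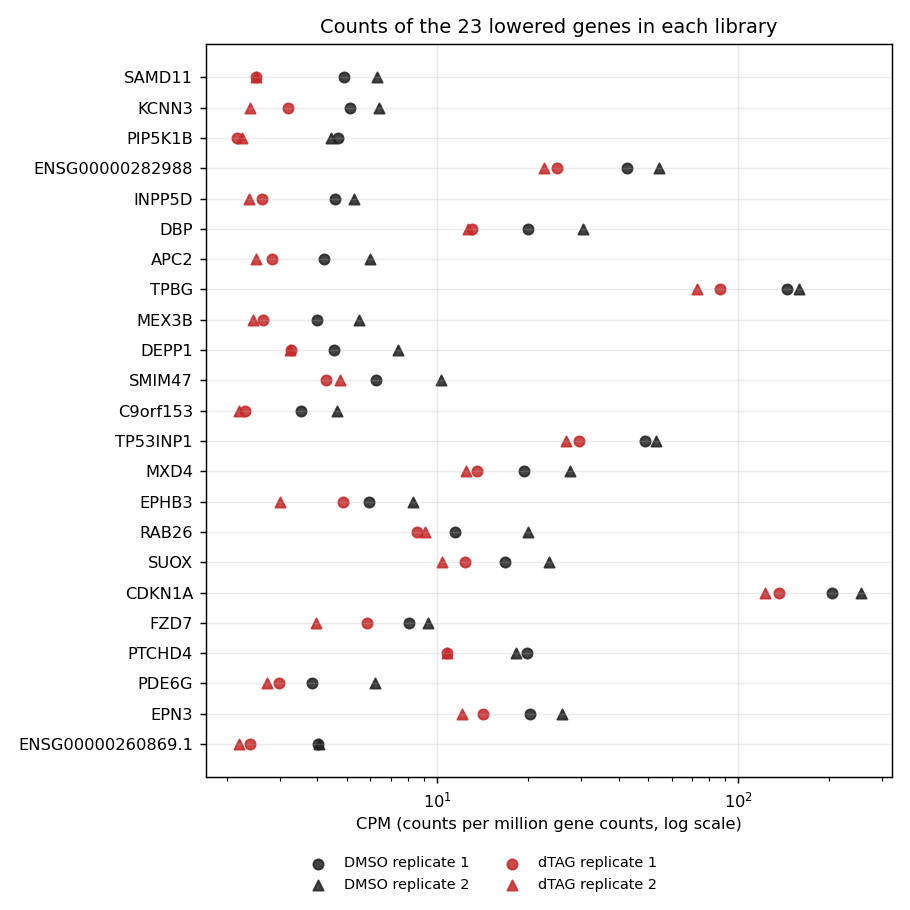
CPM (x axis, log scale) of each of the 23 lowered genes in DMSO replicates 1 and 2 (black circles and triangles) and dTAG replicates 1 and 2 (red), ordered by the ratio of the means. Both red points lie left of both black points for all genes, as the choice requires, and the gap between red and black is narrowest for EPHB3, at 1.21 times.

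The second group were genes of the cell surface and of growth factor and Wnt signals. TPBG (ENSG00000146242.8, chromosome 6 from 82363205 to 82370828) encodes a leucine-rich surface protein that inhibits Wnt signals. It stood at 145 and 159 CPM with DMSO and at 86.8 and 73.0 CPM with dTAG, or 152 ± 9.79 and 79.9 ± 9.73 (SD, n = 2). Its log2 fold change of -0.85 had the smallest standard error of the 23, 0.091, and its lower DMSO library was 1.67 times its higher dTAG library. FZD7 (chromosome 2 from 202034586 to 202038445), a frizzled receptor for Wnt ligands, stood at 8.02 and 9.34 CPM with DMSO and at 5.86 and 3.94 CPM with dTAG. EPHB3 (chromosome 3 from 184561783 to 184582409), an ephrin receptor that Wnt signals raise in intestinal crypts, had 5.91 and 8.33 CPM with DMSO and 4.88 and 3.00 CPM with dTAG. These receptors differed from most of the 23 in that the dTAG libraries were far apart, with dTAG replicate 2 at 0.672 times replicate 1 for FZD7 and at 0.614 times for EPHB3.

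APC2 (chromosome 19 from 1446301 to 1473244), a relative of the tumour suppressor APC, stood at 4.20 and 5.98 CPM with DMSO and at 2.83 and 2.50 CPM with dTAG. KCNN3 (chromosome 1 from 154697454 to 154870280), a potassium channel opened by calcium, had 5.13 and 6.40 CPM with DMSO and 3.19 and 2.38 CPM with dTAG. EPN3 (chromosome 17 from 50532542 to 50543750), an epsin of endocytosis, had 20.4 and 25.9 CPM with DMSO and 14.2 and 12.1 CPM with dTAG. RAB26 (chromosome 16 from 2140802 to 2154165), a small GTPase of secretory vesicles, was the most uneven with DMSO, at 11.5 and 20.1 CPM, and had 8.57 and 9.11 CPM with dTAG.

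A pair of lowered genes act on inositol lipids in opposite ways, since PIP5K1B makes the lipid from which growth factors generate PIP3 and INPP5D (SHIP1) removes a phosphate from PIP3. PIP5K1B (chromosome 9 from 68705413 to 69009176) stood at 4.69 and 4.42 CPM with DMSO and at 2.16 and 2.24 CPM with dTAG, or -0.98 ± 0.19 (standard error) on the log2 scale. INPP5D (chromosome 2 from 233059966 to 233207903), best known from blood cells, stood at 4.57 and 5.30 CPM with DMSO and at 2.61 and 2.37 CPM with dTAG, or -0.91 ± 0.19 (standard error) on the log2 scale. Both are long genes with few counts per length, 0.0150 CPM per kilobase for PIP5K1B and 0.0333 for INPP5D. In PIP5K1B the replicates of each condition differed little, and the ratio of DMSO to dTAG was 2.17 within replicate 1 and 1.97 within replicate 2.

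The remaining genes share no role. SAMD11 (ENSG00000187634.11, chromosome 1 from 923927 to 944581), a SAM domain protein, had the highest ratio of the 23 at 2.24, with 4.88 and 6.33 CPM with DMSO against 2.50 and 2.49 CPM with dTAG. MEX3B (chromosome 15 from 82041777 to 82046141), an RNA-binding protein, stood at 3.99 and 5.50 CPM with DMSO and at 2.64 and 2.44 CPM with dTAG. SUOX (chromosome 12 from 55997179 to 56006641), sulfite oxidase, had 16.8 and 23.5 CPM with DMSO and 12.3 and 10.4 CPM with dTAG. All of these lay higher in DMSO replicate 2 than in replicate 1. PDE6G, the inhibitory subunit of a cyclic GMP phosphodiesterase of rods, had 3.83 and 6.19 CPM with DMSO and 2.98 and 2.72 CPM with dTAG. SMIM47, a small membrane protein, had 6.25 and 10.3 CPM with DMSO and 4.28 and 4.77 CPM with dTAG. C9orf153, an open reading frame, had 3.53 and 4.65 CPM with DMSO and 2.31 and 2.19 CPM with dTAG.

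The other pair carry no symbol. ENSG00000282988 (chromosome 6 from 26195594 to 26199293) lies in the histone gene cluster and spans H2AC7 and H3C4 on its own strand, both of which had 0 counts in all libraries. It stood at 42.8 and 54.5 CPM with DMSO and at 24.9 and 22.7 CPM with dTAG, or -0.96 on the log2 scale (standard error 0.11). Its name did not meet the family names that were dropped. Whether reads over the histone genes within it entered its count is not known. All 436 genes that lie wholly inside another gene on the same strand had 0 counts, while 121 of 608 genes (19.9%) inside a gene on the opposite strand alone had 0, so counting kept the strands apart and gave no reads to genes nested on the same strand. ENSG00000260869.1 (chromosome 16 from 30534226 to 30558279) overlaps ZNF747, ZNF764 and ENSG00000261459 on its own strand. It stood at 4.00 and 4.04 CPM with DMSO and at 2.38 and 2.20 CPM with dTAG, and at a ratio of 1.754 it was the gene just inside the limit.

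Just inside the ratio of 1.75 were also EPN3 (1.755) and PDE6G (1.759). Just outside it were CHD9NB, a gene of 12.4 and 14.0 CPM with DMSO against 8.22 and 6.97 with dTAG (1.739), and CORO6 of 7.76 and 11.6 against 6.15 and 4.99 (1.736). The spread between replicates is larger than these steps, so that the limit divides genes of like change. With a ratio of 2, 4 genes remained, and with 1.5, 167 genes met it.

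Over all 23 genes, the ratio of DMSO to dTAG lay between 1.75 and 2.24 with a median of 1.82. The lower DMSO library was at least 1.5 times the higher dTAG library in 12 of them. All 23 were also called lower by the edgeR fit, against 3.66% of the tested genes, and both dTAG libraries lay below both DMSO libraries in 40.7% of the 11015 genes, from which nothing can be read since the same counts chose the members. Of the 23, 14 were called lower with the ERCC factor, 0 with the ERCC totals as library sizes, 21 with a replicate block and 23 with DESeq2. Of all 12612 tested genes, the same settings called 702, 0, 178 and 582 lower. These counts too rest on the libraries that chose the members. The members' median log2 fold change was -0.87 without dTAG replicate 1 and -0.75 without dTAG replicate 2. In both of these fits, fewer members and fewer of all tested genes were called. The 2 replicates did not contribute alike. DMSO replicate 2 lay above DMSO replicate 1 in 21 of 23 genes (91.3%), against 62.6% of the 11015, and dTAG replicate 2 lay below dTAG replicate 1 in 20 (87.0%), against 56.8%. The ratio of DMSO to dTAG had a median of 1.51 within replicate 1 and of 2.23 within replicate 2, and it was larger within replicate 2 in 21 of 23 genes. On the log2 scale, with the DMSO mean at 0, the members' median was -0.15 and 0.15 in the first and second DMSO library and -0.75 and -0.86 in the first and second dTAG library. The ERCC spike-in RNAs, with 14798, 25165, 13870 and 9551 counts, ranked the libraries alike, and their part in these values was not tested.

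The members were richer in GC and shorter than most genes. Their median GC content over the gene was 52.8%, against 44.7% for the 11015 genes, and 10 of 23 (43.5%) exceeded 55%, against 15.7%. The median length was 14.9 kb, against 37.1 kb, and 7 genes (30.4%) were under 10 kb, against 15.5%. Exons made up a median of 25.8% of the gene, against 15.2%, in the 22 genes with exon models. The range was wide, from 36.8% GC in PTCHD4 to 66.6% in SAMD11, and PIP5K1B (304 kb), PTCHD4 (191 kb), KCNN3 (173 kb) and INPP5D (148 kb) were over 100 kb long. The genes lay on 13 chromosomes, with 4 on chromosome 6 and 3 on chromosome 19, and 10 of 23 (43.5%) overlapped another gene, against 34.2%.

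Across the 11015 genes, the log2 fold change fell with GC content (Spearman's rho -0.59) and rose with gene length (rho 0.45). These correlations are across genes that share the same 4 libraries, so they carry no p. Among the 23 members, DMSO replicate 2 exceeded DMSO replicate 1 by more as GC content rose (rho 0.63), which describes genes chosen by these same counts. The plot of change against GC content shows the members below most genes of like GC content, as their choice requires.

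**Figure D2:**
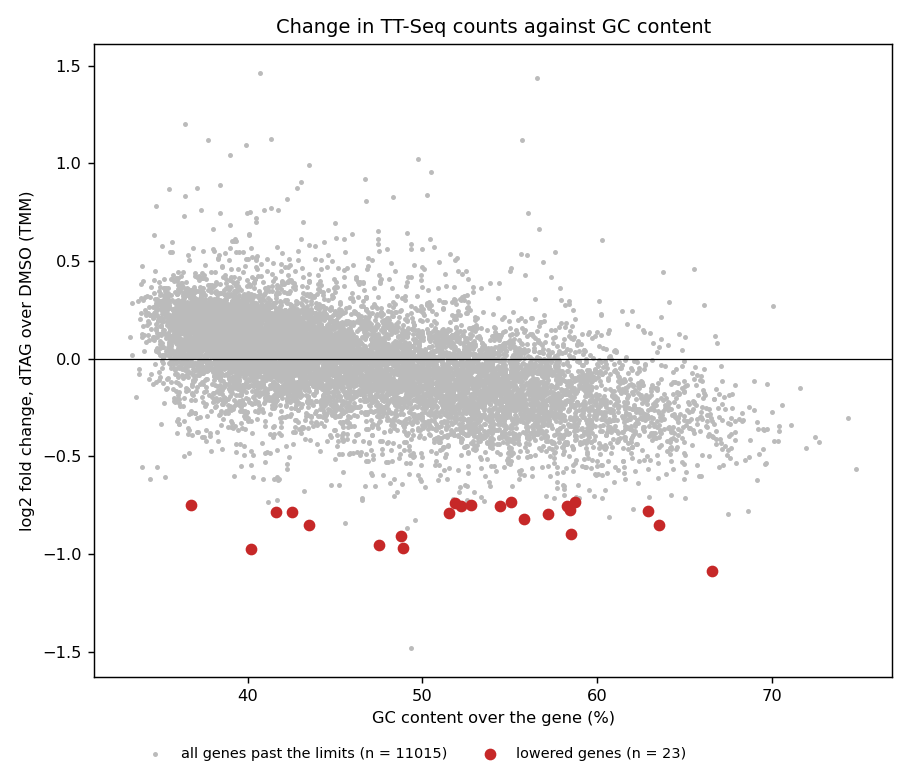
Log2 fold change of dTAG over DMSO on the TMM scale (y axis) against GC content over the whole gene in percent (x axis) for 11015 genes (grey) and the 23 lowered genes (red). The grey band slopes down from left to right (rho -0.59), and the red points lie between -1.09 and -0.73 from 36.8% to 66.6% GC.

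When each library's trend on GC content and then on gene length was removed, the median log2 fold change of the 23 genes was -0.61 instead of -0.79, with a range from -1.07 to -0.47. The change moved in both directions. In GC-rich genes it became smaller, from -1.09 to -0.74 in SAMD11, from -0.90 to -0.62 in DBP, from -0.78 to -0.47 in MXD4 and from -0.75 to -0.55 in CDKN1A. In GC-poor genes it was as large or larger, from -0.98 to -1.07 in PIP5K1B, from -0.75 to -0.92 in PTCHD4, from -0.78 to -0.86 in C9orf153 and from -0.79 to -0.83 in TP53INP1, while TPBG moved from -0.85 to -0.84. With the trend removed, 9 genes met the rule, 8 of them among the 23, namely KCNN3, PIP5K1B, ENSG00000282988, INPP5D, TPBG, C9orf153, TP53INP1 and PTCHD4.

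The spike-in RNAs gave another scale. With a factor estimated from 14 ERCC RNAs as a covariate, all 23 genes remained below 0, with a median of -0.53 and a range from -1.16 in PIP5K1B to -0.22 in RAB26. DEPP1 (-0.31), SMIM47 (-0.35), EPHB3 (-0.30) and PDE6G (-0.24) moved furthest toward 0 beside RAB26. With the ERCC totals as library sizes, the median of all tested genes was 0.63 and that of the 23 was -0.12, with all 23 still below 0.

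**Figure D3:**
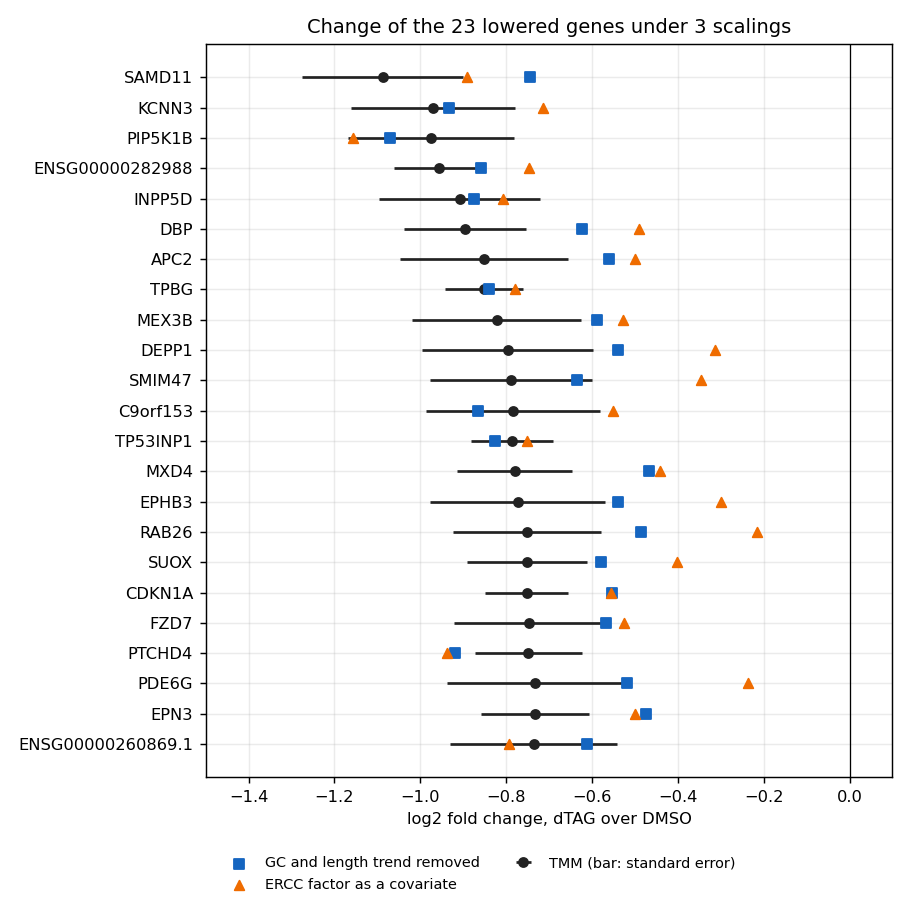
Log2 fold change of dTAG over DMSO (x axis) of the 23 lowered genes with TMM (black, bars are standard errors), after removal of the trends on GC content and length (blue squares) and with the ERCC factor as a covariate (orange triangles). To 2 decimals, PIP5K1B, ENSG00000282988, INPP5D, TPBG, TP53INP1 and PTCHD4 lie at -0.75 or below in all 3 fits, whereas RAB26, PDE6G and EPHB3 lie at -0.30 or above with the ERCC factor.

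The other genes of the members' pathways were taken from 10 lists. These were written with earlier results of these data and the study's changed genes known, so the shares below describe the lists and are no independent test. Of 276 list genes that are not among the 23, 27 were called lower and 8 higher, against 3.66% and 3.44% of all tested genes. The list of p53 targets held CDKN1A, TP53INP1 and PTCHD4 and 33 other tested genes. Of these 33, 10 were called lower (30.3%, against 3.66% of all tested genes), 1 was called higher, and 28 lay below 0, with a median log2 fold change of -0.19 against -0.015. BTG2, an antiproliferative gene, fell by 0.71 on the log2 scale (standard error 0.11), with 27.9 and 30.5 CPM (here on TMM library sizes) with DMSO and 19.2 and 16.6 with dTAG. For BTG2, edgeR gave a Benjamini-Hochberg adjusted p of 0.00058. PHLDA3, an inhibitor of AKT, fell by 0.59 and BBC3, the apoptosis inducer PUMA, by 0.52, and a further 7, named here after their values were seen, were called lower, namely DDB2, FDXR, TRIAP1, GDF15, RPS27L, BAX and SUSD6. SESN2, which stress raises through ATF4 as well as p53, rose by 0.46.

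The p53 count depended on the libraries and on the scaling, as did the count over all tested genes. In fits without a single library, a group of 1 has no spread of its own, so medians are given instead of counts. Omitting DMSO replicate 1 or 2 gave a p53 median of -0.21 or -0.23, and omitting dTAG replicate 1 or 2 gave -0.22 or -0.17. For all tested genes the medians of these fits were -0.019, -0.0048, -0.011 and -0.0088. With the trends on GC content and length removed, 20 of the 33 were called lower and 5 higher. Of all 12612 tested genes, 942 and 1343 were. The ERCC factor gave 15 and 4, against 702 and 434 of all tested genes. A replicate block gave 4 and 1, against 178 and 162. With the ERCC totals as library sizes, edgeR called 0 of the 33, and 0 were at an unadjusted p under 0.05, with a median of 0.44.

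**Figure D4:**
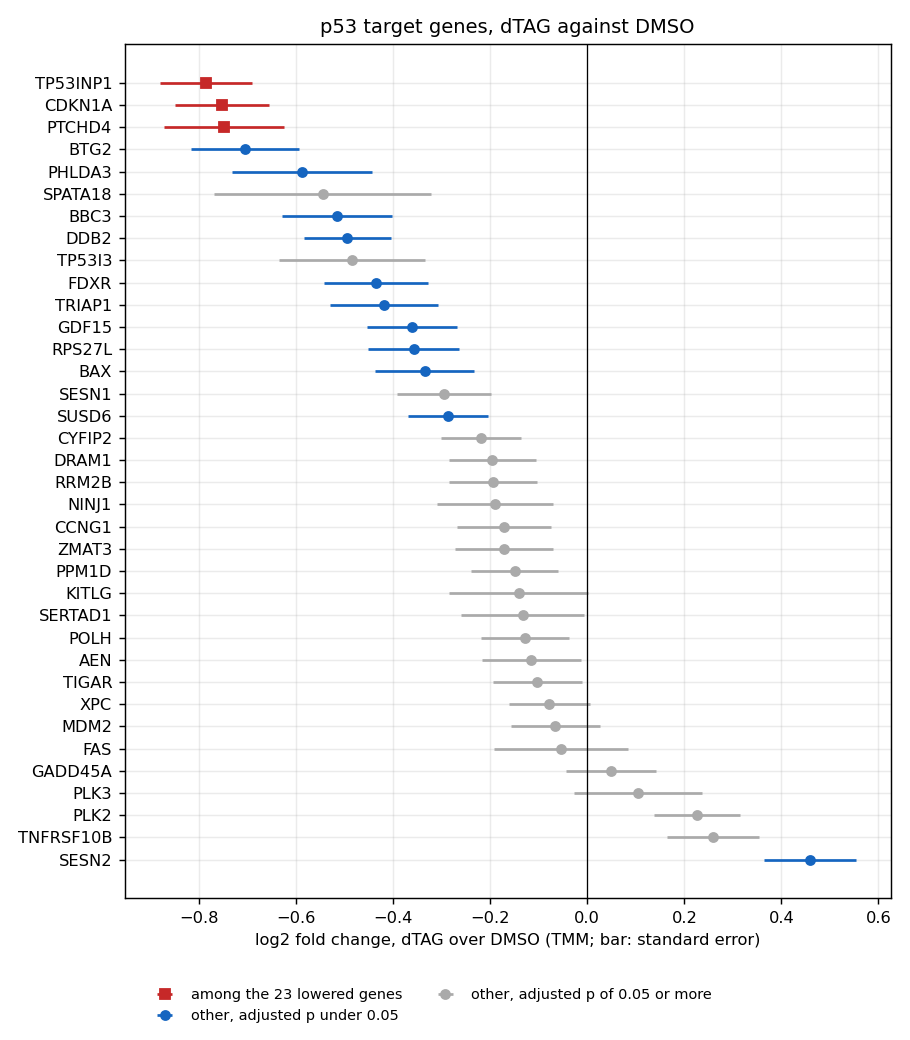
Log2 fold change of dTAG over DMSO on the TMM scale (x axis, bars are standard errors) for 36 tested p53 target genes. Red squares are the 3 lowered genes CDKN1A, TP53INP1 and PTCHD4, blue circles are other genes called at an adjusted p under 0.05 by edgeR, 10 on the left and SESN2 on the right, and grey circles are the rest.

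Of the FOXO and growth factor withdrawal genes, 3 of 26 besides TP53INP1 were called lower (11.5%) and 1 higher (3.85%). Of all tested genes, 3.66% were called lower and 3.44% higher. PNRC1, a nuclear receptor coregulator, fell by 0.68, the stress sensor gene SESN3 by 0.61 and the cell cycle inhibitor gene CDKN1B by 0.42, while FOXO3 itself rose by 0.34. Of 23 Wnt receptor and feedback genes besides TPBG and FZD7, 0 were called higher, with 1 higher at an unadjusted p under 0.05, and 3 were called lower (13.0%). These were the GTPase gene RHOU (-0.71), the receptor gene FZD1 (-0.60) and AXIN2 (-0.49), a feedback inhibitor of beta-catenin. Without either dTAG library, fewer genes of each list were called, as of all tested genes. Without dTAG replicate 2, the median log2 fold change was -0.16 for the FOXO list and -0.22 for the Wnt list.

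Of 35 axon guidance genes besides EPHB3, 5 were called lower (14.3%, against 3.66% of all tested genes) and 2 higher (5.71%, against 3.44%). SLIT1, a secreted guidance ligand, fell by 0.88, and the ephrin ligand genes EFNB1 and EFNA1 fell by 0.55 and 0.52. NRP1, a neuropilin coreceptor, rose by 1.13 and the ephrin receptor gene EPHA2 by 0.42. Of 39 cation channel genes besides KCNN3, 2 were called lower (5.13%) and 0 higher (0 also at an unadjusted p under 0.05). The 2 were the potassium channel genes KCNC4 (-0.50) and KCNS3 (-0.49). Their share is near the 3.66% of all tested genes, so it is not read as a result about the channels.

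Of 32 genes of the inositol lipid list besides PIP5K1B and INPP5D, edgeR called 0 lower (2 at an unadjusted p under 0.05) and 3 higher (9.38%, against 3.44% of all tested genes). The median was 0.098, with 10 genes below 0, and it turned to -0.039 with the ERCC factor, with 18 below 0, 1 called lower and 3 higher. The called genes were the kinase genes PI4K2B (1.07, standard error 0.26) and PIP4K2A (0.48) and the phosphatase gene SYNJ2 (0.32). PI4K2B was low, at 1.23 and 0.84 CPM with DMSO and 1.87 and 2.50 with dTAG, on TMM library sizes. When a single library was left out, the median of the 32 stayed above 0. Omitting dTAG replicate 1 or 2 gave 0.084 or 0.12, and omitting DMSO replicate 1 or 2 gave 0.14 or 0.046. For all tested genes the medians of these fits were -0.011, -0.0088, -0.019 and -0.0048. Of all tested genes, 3.66% were called lower and 3.44% higher, beside which the lists that held none of the 23 are given. Of 21 tested genes on a list of homeobox factors, 2 were called lower (9.52%) and 0 higher (0 also at an unadjusted p under 0.05). The HOX gene HOXA9 was one of the 2, at -0.43. Of 19 MAP kinase kinase and p38 genes, MAP2K6, an activator of p38, fell by 0.99 and MAP3K20 rose by 0.33 (5.26% in each direction). Of 23 genes of cAMP and prostaglandin signalling, 1 was called lower (4.35%), the adenylyl cyclase gene ADCY5 (-0.95, standard error 0.27), and 0 higher. ADCY5 was low, at 1.72 and 1.36 CPM with DMSO and 0.64 and 0.96 with dTAG, on TMM library sizes. Of 26 interferon-induced genes, edgeR called 0, with 4 lower and 0 higher at an unadjusted p under 0.05 and DESeq2 calling 1 lower and 0 higher.

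Genes that share a member's symbol stem were taken as its relatives, though a shared stem need not mean the same family. Of 116 tested relatives of 13 members, 6 were called lower and 2 higher, against 3.66% and 3.44% of all tested genes. RAB26 alone gave 48 of the 116, so these values describe RAB genes more than any other family. The relatives' median log2 fold change was -0.027 against -0.015 for all tested genes. Among the lowered relatives were CDKN1C (-0.97, standard error 0.28) and CDKN1B (-0.42), cell cycle inhibitors like CDKN1A. CDKN1C had only 114 and 147 counts with DMSO and 78 and 50 with dTAG, and the fit required 50. The others were FZD1 (-0.60) beside FZD7, MXD3 (-0.54) beside MXD4, RAB3A (-0.49) among the relatives of RAB26, and SAMD5 (-0.48) among those of SAMD11. PDE10A (0.76) and SAMD4A (0.46) rose. For the relatives of KCNN3, PIP5K1B, INPP5D, MEX3B, TP53INP1, EPHB3 and EPN3, edgeR called 0 of 23, with 7 at an unadjusted p under 0.05, of which 3 were lower and 4 higher. When a single library was left out, the number of called relatives fell or rose with that of all tested genes. Those counts are therefore not read as a result about the relatives.

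Neighbours along the chromosome were looked at in the same way. The nearest tested gene on each side gave 45 neighbours, 38 of them without overlap. Of the 45, 4 were called lower and 1 higher, against 3.66% and 3.44% of all tested genes. A log2 fold change below 0 was found in 32 (71.1%), against 52.3% of all tested genes, and the median was -0.15. At an unadjusted p under 0.05 by edgeR, 9 neighbours were lower and 4 higher, against 1800 and 1555 of all tested genes. With the trends on GC content and length removed, these were 8 and 8, against 1888 and 2211. The part of GC content in the neighbours' values was not tested. Called lower were H4C4 (-0.71) and H2BC7 (-0.31), 6.52 and 0.225 kb from ENSG00000282988, STARD5 (-0.61), 718 kb from MEX3B, and SPHK2 (-0.37), which overlaps DBP on the opposite strand. ZNG1C, 405 kb from PIP5K1B, rose by 0.42. The number of called neighbours fell without either dTAG library and rose without either DMSO library, as did that of all tested genes.

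**Figure D5:**
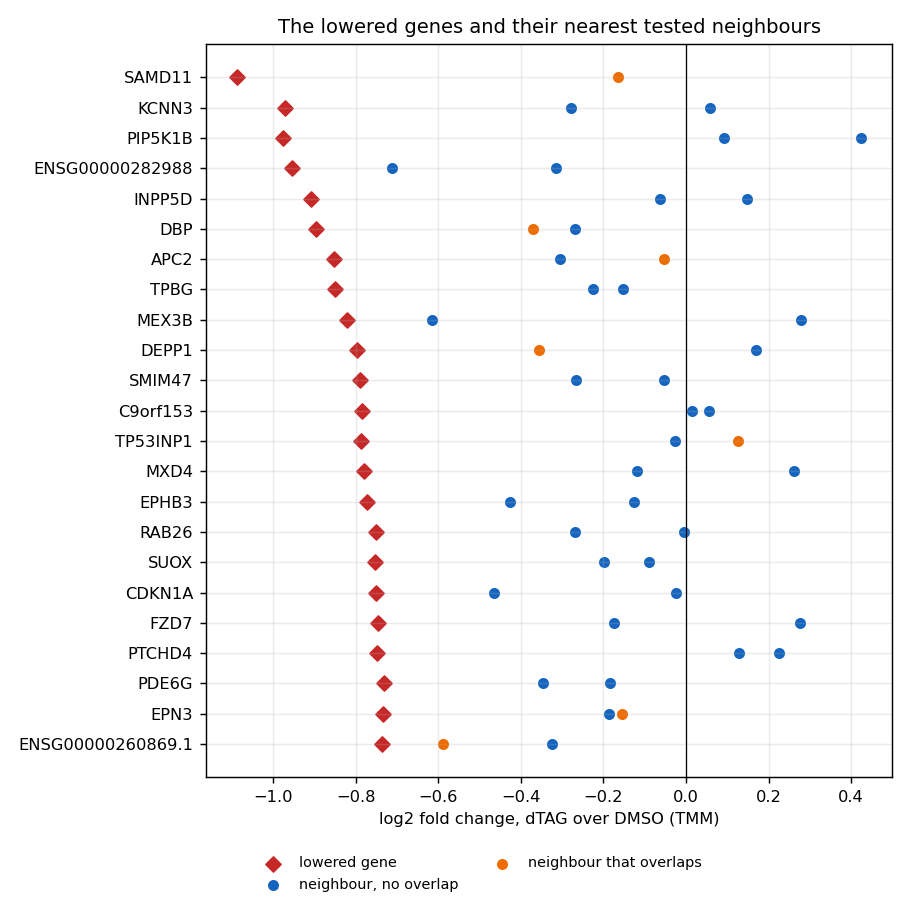
Log2 fold change of dTAG over DMSO on the TMM scale (x axis) of each lowered gene (red diamonds) and of its nearest tested neighbours on either side, without overlap (blue) or overlapping it (orange). The neighbours lie to the right of the lowered gene in every row, and nearest to it for ENSG00000282988, MEX3B and ENSG00000260869.1, where a neighbour is at -0.71, -0.61 and -0.59.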

How the data were processed

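RNA labelled with 4sU was isolated from 2 DMSO and 2 dTAG samples, and the authors trimmed reads (Trim Galore 0.6.4, FastQC 0.11.8), mapped them to hg38 with STAR and used featureCounts (Subread 1.6.3) to count those on whole protein-coding genes, introns included, and on 92 spike-ins of the ERCC mix. The values are the counts deposited by the authors, without normalization. The strand setting is not given in the sources used here.

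The rule for the 23 genes used CPM from the sums of gene counts, and the named genes were all members, called neighbours and relatives (up to 5 in each direction) and called list genes (up to 3 in each list and direction). The members and lists were chosen with earlier results of these data known, and the lists also with the study's changed genes known. A gene that falls under the rule for named genes is not reported here. Counts were tested in R 4.3.3 with edgeR 4.0.16 (TMM, quasi-likelihood test, two-sided, Benjamini-Hochberg adjustment over 12612 genes). DESeq2 1.42.0 was an alternative, and both were first tried on simulated data. The spike-in normalization of the study is given without its function or number of factors, so TMM was used, and 1 ERCC factor or the ERCC totals were alternatives, beside trends removed by lowess (span 0.3), upper-quartile normalization, other filters, a replicate block and leaving out each library. GC content came from hg38, exons from GENCODE, and 19802 of 19901 genes had a symbol. Tables were read in Python 3.11.15. Same-numbered libraries deviated from their group means with a correlation of -0.24 across genes. With 2 libraries in each condition, this cannot show whether same-numbered libraries were handled together, and the main fit did not pair them.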

Additional observations from a re-analysis of the deposited data

How the results depend on the processing

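The number of genes that met the rule was 9 with TMM library sizes, 0 with ERCC totals in place of the sums (a setting that asks for a 1.75-fold fall against spike-ins that moved the median of all genes up), 167 at a ratio of 1.5, 4 at a ratio of 2, 78 with 50 counts, 10 with 500 counts, 9 with the trends on GC content and length removed and 13 without overlapping genes, where the last 2 shared 8 and 13 genes with the 23. It was 108 without DMSO replicate 1, 8 without DMSO replicate 2, 63 without dTAG replicate 1 and 25 without dTAG replicate 2, a range of 8 to 108, of which 22, 7, 21 and 13 were among the 23. The members' median log2 fold change was -0.53 with the ERCC factor, -0.12 with the ERCC totals and -0.61 with the trends removed, and lay between -0.98 and -0.62 without any single library.

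Of all tested genes, 461 were called lower and 434 higher. With the ERCC factor 702 were called lower, with DESeq2 691 higher, with the trends removed 942 lower and 1343 higher, with no filter on low counts 744 and 673, and with upper-quartile normalization 869 and 255. With the ERCC totals edgeR called 0 and 0, with 0 lower and 229 higher at an unadjusted p under 0.05. The replicate block gave 178 lower and 162 higher. Leaving out single libraries gave 21 to 2693 lower and 48 to 2798 higher, with the highest counts without DMSO replicate 1 (2693 and 2798) and the lowest without dTAG replicate 2 (21 and 48). A group left with 1 library is assumed to vary like the other.

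The 5 called neighbours became 9 with the trends removed, 9 with no filter, 3 without overlapping genes, 2 with the replicate block, 0 with the ERCC totals (1 at an unadjusted p under 0.05, by edgeR), and 0 to 22 without single libraries. The 8 called relatives became 26 with the trends removed, 13 with no filter, 5 with the replicate block, 0 with the ERCC totals (2 at an unadjusted p under 0.05, by edgeR), and 0 to 49 without single libraries. The 35 called list genes became 55 with the ERCC factor, 88 with the trends removed, 53 with no filter, 19 with the replicate block, 0 with the ERCC totals (3 at an unadjusted p under 0.05, by edgeR), and 2 to 123 without single libraries. A replicate block with the numbers crossed, chosen after seeing the data, called 1603 genes lower and 1587 higher, with 12 neighbours, 30 relatives and 94 list genes.

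With the ERCC totals, which moved the median of all genes to 0.63, the sign was reversed for STARD5 (0.032), SPHK2 (0.30), H2BC7 (0.34), FZD1 (0.027), MXD3 (0.14), RAB3A (0.15), SAMD5 (0.14), PHLDA3 (0.086), BBC3 (0.16), SESN3 (0.027), CDKN1B (0.24), AXIN2 (0.18), HOXA9 (0.18), EFNB1 (0.11), EFNA1 (0.16), KCNC4 (0.16) and KCNS3 (0.14), and these remained below that median. Over all settings, the named genes outside the 23 lost their call 129 times with the same sign and 17 times with the sign reversed, and kept their call 327 times. The cause of these changes was not tested. With 2 libraries in each condition, the precision of a fold change is set by the spread between libraries rather than by counting, and without dTAG replicate 2 NRP1 and MAP2K6 alone of the named genes outside the 23 kept their call.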
